A study of Arabidopsis thaliana with 18 samples.

Results

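UDP-glucosyltransferases move glucose from UDP-glucose onto small acceptor molecules, and 10 genes of this family that act on phenolic or other small acceptors were followed in Arabidopsis thaliana roots grown with bisphenols. The genes were taken by locus and make up 10 of the 33602 loci in the deposited values. They are UGT72B1 (AT4G01070), UGT72E1 (AT3G50740), UGT72E2 (AT5G66690), UGT72E3 (AT5G26310), UGT71C1 (AT2G29750), UGT71C3 (AT1G07260), UGT73B4 (AT2G15490), UGT73B5 (AT2G15480), UGT73C5 (AT2G36800) and UGT74E2 (AT1G05680). Of these, 9 had a mean of at least 1 FPKM over all libraries and were tested, and UGT73C5 was not.

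Messenger RNA of wild-type (WT) roots was sequenced from 18 libraries in 6 groups of 3, after 14 days on agar plates. The control group received the solvent dimethyl sulfoxide (DMSO) at under 0.01% and no bisphenol, and the agar of the other groups held bisphenol A (BPA) or a related bisphenol of the same naming scheme, BPB, BPE, BPF or BPS. All groups shared genotype, medium, tissue and age, and the tissue is a whole root with all its cell types. The protocol lists doses of 1, 3 and 10 mg/L, but no label gives the dose of a library, so the compounds cannot be taken as matched in dose. Bisphenols are pairs of phenol rings joined by a bridge. BPF has a methylene bridge, BPE adds a lone methyl group to that carbon, BPA carries a pair of methyl groups there, BPB has ethyl in place of a methyl, and in BPS the bridge is a sulfonyl.

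Plants attach glucose to phenols that they make and to foreign phenols that they take up, which makes the molecule more soluble and allows its storage in the vacuole or its export to the wall. UGT72B1 is known for glucosylating chlorinated phenols and anilines. The UGT72E enzymes glucosylate the building blocks of lignin: UGT72E1 acts on coniferyl and sinapyl aldehydes, UGT72E2 on coniferyl and sinapyl alcohols, and UGT72E3 mainly on sinapyl alcohol. UGT71C1 glucosylates flavonoids and hydroxycinnamates in vitro, UGT71C3 acts on methyl salicylate, and UGT73B4 and UGT73B5 are stress-responsive enzymes that accept flavonols and other phenolics. UGT73C5 acts on the fungal toxin deoxynivalenol and on brassinosteroids, and UGT74E2 on the auxin precursor indole-3-butyric acid.

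The members include close copies, which matters for how fragments were divided among them. The donor-sugar box, the stretch that holds the UDP-sugar in plant enzymes of this kind, is 132 bases long in every member. It is shown for the UGT72E genes and for the UGT73B pair, since their values are compared below. Sequences are on the coding strand from the TAIR10.1 reference. Capitals mark bases that differ from UGT72E2, which has none by construction.
UGT72E2: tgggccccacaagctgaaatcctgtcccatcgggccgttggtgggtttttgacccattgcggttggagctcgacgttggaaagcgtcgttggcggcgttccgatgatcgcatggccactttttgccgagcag
UGT72E1: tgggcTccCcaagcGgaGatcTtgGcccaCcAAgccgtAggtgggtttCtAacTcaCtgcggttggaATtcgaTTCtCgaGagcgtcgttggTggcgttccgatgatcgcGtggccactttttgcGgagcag
UGT72E3: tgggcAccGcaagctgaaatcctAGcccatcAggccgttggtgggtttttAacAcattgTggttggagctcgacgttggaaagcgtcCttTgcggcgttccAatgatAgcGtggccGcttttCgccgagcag
UGT72E2 (chr5:26626187-26626318, plus strand) and UGT72E3 (chr5:9235771-9235902, plus strand) differ at 15 bases of the box, and UGT72E1 (chr3:18855633-18855764, minus strand) differs from UGT72E2 at 24. Over the coding sequence UGT72E2 and UGT72E3 were 89.5% identical with a longest shared run of 57 bases, while UGT72E1 and UGT72E2 were 73.7% identical with a longest run of 21 bases.

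In the UGT73B pair, capitals mark bases of UGT73B5 (chr2:6760060-6760191, plus strand) that differ from UGT73B4 (chr2:6763006-6763137, plus strand).
UGT73B4: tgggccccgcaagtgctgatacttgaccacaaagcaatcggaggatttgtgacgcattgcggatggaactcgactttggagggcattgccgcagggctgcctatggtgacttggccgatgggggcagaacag
UGT73B5: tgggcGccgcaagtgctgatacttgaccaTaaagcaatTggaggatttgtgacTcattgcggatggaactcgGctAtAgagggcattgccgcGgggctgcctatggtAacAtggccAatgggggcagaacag
The boxes differ at 11 bases. Over the coding sequence the pair was 92.3% identical, the highest identity of any member to another gene compared, and shared a run of 159 bases. The reference annotation also places the UGT73B4 locus (chromosome 2, 6761635 to 6763500) inside the UGT73B5 locus (6758430 to 6763501) on the same strand, so how the fragments of these genes were divided is uncertain. The same caution holds for UGT73C5, which was 91.4% identical to UGT73C6, for UGT74E2, which was 89.5% identical to UGT74E1, and for UGT71C3, whose locus overlaps AT1G07250 (UGT71C4).

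The 250 bases before the annotated starts of UGT73B4 and UGT73B5 are shown because these neighbouring genes both hold the motif described here. Capitals mark the letters TGACG on either strand (CGTCA on the printed strand), the core of the sites that TGA transcription factors bind.
UGT73B4: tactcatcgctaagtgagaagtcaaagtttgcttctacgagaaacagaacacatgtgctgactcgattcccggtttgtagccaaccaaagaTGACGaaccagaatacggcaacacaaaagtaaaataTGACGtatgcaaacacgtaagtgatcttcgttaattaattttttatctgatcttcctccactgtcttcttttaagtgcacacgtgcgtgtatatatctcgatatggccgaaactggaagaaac
UGT73B5: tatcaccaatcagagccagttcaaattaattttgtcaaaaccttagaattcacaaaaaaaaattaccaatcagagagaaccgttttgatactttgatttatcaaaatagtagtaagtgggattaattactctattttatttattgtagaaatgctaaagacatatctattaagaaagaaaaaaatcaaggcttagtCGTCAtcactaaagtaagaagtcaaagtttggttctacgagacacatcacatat
The stretch before UGT73B4 (chr2:6761385-6761634, plus strand), which lies within the annotated UGT73B5 locus, held TGACG 2 times, and that before UGT73B5 (chr2:6758180-6758429, plus strand) held it 1 time. Among the members 3 of 10 had the letters in this window (UGT73B4, UGT73B5 and UGT73C5), against 5098 of 27443 promoters of the same length (18.6%). A match is a description of the letters and not a measured binding site.

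Values are FPKM, fragments per kilobase of gene, relative to sequencing depth. Between 15.9 M and 22.2 M fragments per library were estimated from the step between low values, and 22971 to 24256 loci were above 0. The nearest library by correlation over all tested genes was of the same group for 11 of 18 libraries and of another group for 7, among them BPB replicate 3 (nearest BPS replicate 3) and BPS replicate 1 (nearest BPA replicate 3). Of the 12 root marker genes none was at 0 in any group, and their summed level ran from 2841 to 4847 FPKM per library. Of the 11 root markers tested, 2 rose and 2 fell with BPA and with BPB, and 0 rose and 2 fell with BPE. With BPF 0 were called (limma, 5 at an unadjusted p below 0.05), and with BPS 6 rose and 0 fell. The BPS count was 3 without control replicate 1, and the BPE count 0 without control replicate 3. For BPS minus BPE, 8 root markers were higher and 0 lower (39.4% of all tested genes called). The summed level of 14 photosynthetic shoot markers ran from 70.3 to 177 FPKM in control libraries, 295 to 526 with BPA, 597 to 620 with BPB, 312 to 365 with BPE, 134 to 314 with BPF and 198 to 500 with BPS. Of the 12 shoot markers tested, 8 rose with BPA, 12 with BPB, 10 with BPE, 0 with BPF (limma, 7 at an unadjusted p below 0.05) and 9 with BPS. The BPA count of shoot markers was 2 without BPA replicate 2 and the BPE count 1 without control replicate 3. Of all tested genes, 6.57% were called higher and 3.83% lower with BPA, and 25.5% and 11.1% with BPB. These shares were 9.08% and 5.20% with BPE, 0.708% and 0.677% with BPF, and 12.3% and 8.71% with BPS. The part of these marker differences in the results was not tested. In whole roots, fewer cells of a type and less RNA per cell cannot be told apart. The labels do not state whether replicates were separate plants or plates, so p-values here cover only library-to-library spread, which may be technical.

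Across the 6 groups, 7 of the 9 tested members differed (moderated F test in limma, adjusted p below 0.05), where 53.3% of all 19484 tested genes did. UGT72E1 had the lowest adjusted p, 0.00012, and UGT72E3 (0.0585) and UGT72B1 (0.151) did not pass. Against control, 14 of 45 tests of members passed, in 6 members. With BPA, 1 member rose and 1 fell, where 10.4% of all tested genes were called (6.57% higher, 3.83% lower). With BPB, 2 rose and 2 fell against 36.6% of all genes called (25.5% higher, 11.1% lower). With BPE, 3 rose and 2 fell against 14.3% (9.08% higher, 5.20% lower). With BPF, 1 rose and 0 fell against 1.39% (0.708% higher, 0.677% lower), and with BPS, 2 rose and 0 fell against 21.0% (12.3% higher, 8.71% lower). The median log2 change of the 9 members was 0.54 with BPA, 0.20 with BPB, 1.04 with BPE, 0.43 with BPF and -0.05 with BPS, beside 0.04, 0.16, 0.04, 0.01 and 0.09 over all tested genes. These comparisons share the control libraries. Members whose libraries did not overlap with the control libraries numbered 6 of 9 with BPA (34.8% of all tested genes), 3 with BPB (48.9%), 8 with BPE (46.3%), 5 with BPF (28.7%) and 2 with BPS (38.0%).

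**Figure D1:**
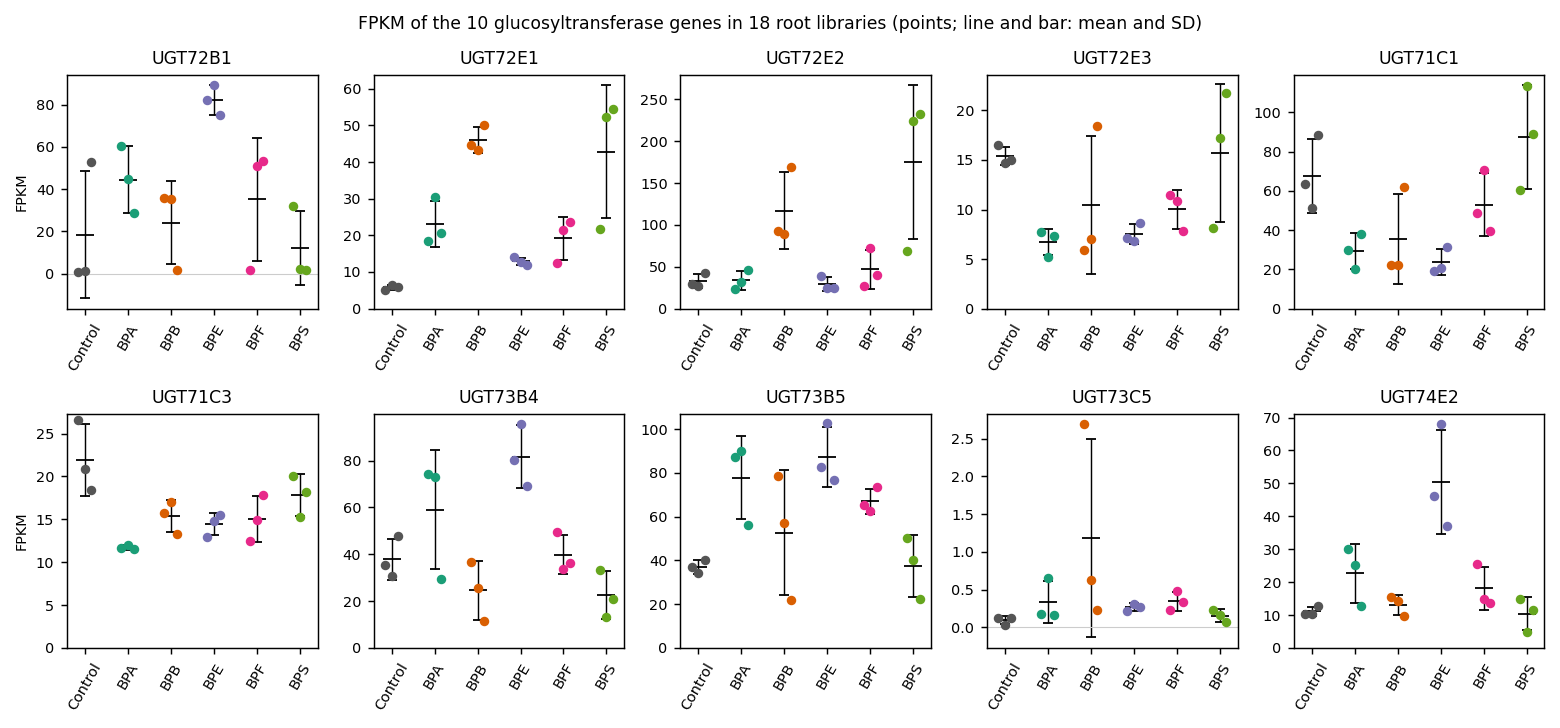
FPKM (y axis) of the 10 glucosyltransferase genes in every library by group (x axis); points are libraries, the horizontal line and bar are mean and SD of 3 libraries. UGT72E1 is higher than every control library in all 15 bisphenol libraries, UGT72B1 has libraries near 1 FPKM and libraries above 28 FPKM in the same group, and UGT73C5 stays under 3 FPKM.

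Among the glucosyltransferases of lignin precursors, UGT72E1 rose with every compound. It stood at 4.99, 6.36 and 5.97 FPKM in the 3 control libraries. It stood at 18.4, 30.3 and 20.8 FPKM with BPA, 44.6, 43.3 and 50.1 with BPB, and 14.0, 12.6 and 12.03 with BPE. With BPF it stood at 12.5, 21.4 and 23.7 FPKM, and with BPS at 21.9, 52.3 and 54.4. None of the bisphenol libraries overlapped with the control libraries, and BPE had the lowest mean of the 5 compounds. The log2 change was 2.80 ± 0.29 (SE) with BPB (limma, adjusted p = 1.89e-05), 2.59 with BPS (0.000123), 1.81 with BPA (0.00535), 1.53 with BPF (0.0249) and 1.04 with BPE (0.0319). The BPA, BPB and BPS calls were kept whichever library was left out. The BPE call was lost without control replicate 1 or 3 or any BPE library (adjusted p 0.0518 to 0.109), and the BPF call without any control library or BPF replicate 2 or 3 (0.0583 to 0.174). In the order of mean levels, from BPB through BPS, BPA, BPF and BPE to control, only the last step passed the test between neighbours (0.0319).

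UGT72E2, the main glucosyltransferase of coniferyl and sinapyl alcohols, rose with BPB and BPS. It stood at 29.1, 26.6 and 42.6 FPKM in control, 23.2, 31.9 and 45.9 with BPA, and 92.6, 89.1 and 170 with BPB. It stood at 38.8, 25.3 and 24.7 FPKM with BPE, 27.6, 72.9 and 40.7 with BPF, and 68.6, 224 and 233 with BPS. All BPB and BPS libraries exceeded every control library, and BPS replicate 1 lay far below the other BPS libraries, while BPA, BPE and BPF overlapped with control. The log2 change was 1.77 with BPB (limma, adjusted p = 0.00657) and 2.22 with BPS (0.00340), and both calls were kept whichever library was left out. With BPA it was 0.01 (95% interval -0.94 to 0.97, adjusted p = 0.988), and with BPE -0.14 (-1.10 to 0.81, 0.854).

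UGT72E3, which acts mainly on sinapyl alcohol, was not called against control with any compound in the fit of all libraries. It stood at 16.5, 14.7 and 15.04 FPKM in control, and at 7.70, 5.18 and 7.28 with BPA, 7.10, 6.85 and 8.65 with BPE and 11.5, 10.8 and 7.81 with BPF. The libraries of these compounds lay below all control libraries, with log2 changes of -1.10 (limma, adjusted p = 0.0561), -0.95 (0.0792) and -0.59 (0.407) that did not pass. The BPA change passed with quantile normalization (0.0476), median scaling (0.0374), all comparisons adjusted together (0.0442) and only the 6 libraries (0.0103). The BPE change passed with median scaling (0.0485) and only the 6 libraries (0.00317). Neither passed in another setting. With BPB, replicates 1 and 2 stood at 5.87 and 7.00 FPKM and replicate 3 at 18.5, and with BPS the libraries stood at 8.09, 17.2 and 21.8. Without BPB replicate 3 the change with BPB was -1.15 (limma, adjusted p = 0.00706), and the difference among the 6 groups then passed at 0.0063, as it did without BPS replicate 1 (0.0125). That difference (moderated F test in limma) also passed without BPB replicate 1 (0.0452), with quantile normalization (0.0423) and with median scaling (0.0353).

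The shares of the 3 UGT72E transcripts were set side by side. Of the summed UGT72E level, UGT72E1 made up 10.9% ± 2.16 (SD, n = 3) in control, 36.8% ± 8.48 with BPA, 27.8% ± 5.83 with BPB, 26.0% ± 2.44 with BPE, 25.8% ± 6.35 with BPF and 19.2% ± 2.58 with BPS. UGT72E3 made up 29.0% ± 4.74 in control and 11.0% ± 4.09, 5.62% ± 1.89, 15.4% ± 3.61, 14.4% ± 6.75 and 7.04% ± 1.16 in the same order. UGT72E2 made up 60.1% ± 6.003 in control, 52.1% ± 8.59 with BPA, 66.6% ± 4.01 with BPB, 58.6% ± 5.48 with BPE, 59.8% ± 8.44 with BPF and 73.8% ± 3.62 with BPS. The ratio of UGT72E2 to UGT72E3 was 2.14 ± 0.604 in control, 12.6 ± 3.29 with BPB and 10.7 ± 2.25 with BPS, with 5.16 ± 1.85, 4.01 ± 1.34 and 4.79 ± 2.20 with BPA, BPE and BPF. These shares and ratios are descriptions and were not tested.

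UGT72B1, known for foreign phenols, varied widely within groups. It stood at 1.01, 1.32 and 53.0 FPKM in control, 60.3, 44.8 and 28.7 with BPA, and 35.7, 35.2 and 1.74 with BPB. With BPE it stood at 82.1, 89.2 and 75.1, with BPF at 1.75, 50.8 and 53.3, and with BPS at 32.3, 2.18 and 1.65. No library lay between 2.18 and 28.7 FPKM: 6 libraries stood below this gap, in control, BPB, BPF and BPS, and 12 above it. The BPE libraries lay above all control libraries (log2 change 3.71 ± 1.41 (SE), limma, adjusted p = 0.0878) and no comparison passed in the fit of all libraries. With only the 6 libraries compared, the same change passed (0.0437), and without control replicate 3 it was 5.26 (0.0566). BPS lay below BPE by -3.66 (0.0509), which passed without BPS replicate 1 (-4.84, 0.0203), with quantile scaling (0.0477) and with only the 6 libraries (0.0188). The lowest value stood for about 38.4 estimated fragments and the median library for 1331.

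UGT71C1, an enzyme of flavonoid and hydroxycinnamate glucosides, fell with BPB and BPE. It stood at 63.2, 51.4 and 88.4 FPKM in control, 29.7, 20.1 and 38.1 with BPA, and 22.1, 22.4 and 61.8 with BPB. It stood at 19.4, 20.9 and 31.3 with BPE, 48.9, 70.5 and 39.6 with BPF, and 60.2, 113 and 89.1 with BPS. All BPA and BPE libraries lay below the control libraries, while BPB replicate 3 lay among them. The log2 change was -1.46 with BPE (limma, adjusted p = 0.0225) and -1.05 with BPB (0.0403), and -1.19 with BPA did not pass (0.0557). The BPA change passed with the replicate number as a block (0.0433), median scaling (0.0448) and all comparisons adjusted together (0.0438). It also passed with only the 6 libraries (0.0318) and without BPA replicate 3 (0.0472). The BPE call was lost without control replicate 1 or 3 or BPE replicate 1 or 2 (0.0621 to 0.114), and the BPB call without control replicate 1 or 3 or BPB replicate 1 or 2 (0.0814 to 0.166).

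UGT71C3, the methyl salicylate glucosyltransferase, fell with BPA, BPB and BPE. It stood at 26.5, 20.9 and 18.4 FPKM in control, 11.7, 12.04 and 11.5 with BPA, 15.8, 17.1 and 13.3 with BPB, and 13.0, 14.8 and 15.5 with BPE. With BPF it stood at 12.4, 14.9 and 17.8 and with BPS at 20.1, 15.2 and 18.2. The BPA libraries lay furthest below the control, and the log2 change of -0.83 (limma, adjusted p = 0.00671) was kept whichever library was left out. The changes of -0.48 with BPB (0.0243) and -0.56 with BPE (0.0287) passed but were lost without control replicate 1 or BPB replicate 3 (0.0851 to 0.128), and without control replicate 1 or BPE replicate 1 or 2 (0.0796 to 0.120). The BPB call was also lost with only the 6 libraries compared (0.0726). With BPF the change was -0.52 (0.103), and it passed with all comparisons adjusted together (0.0341). The BPB, BPE and BPF libraries, like those of BPA, all lay below the control libraries, and BPF differed from BPB by -0.04 (0.871).

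Of the stress-responsive pair, UGT73B5 rose with BPE in a call that was lost whichever of the libraries compared was left out. UGT73B5 stood at 36.9, 34.2 and 40.4 FPKM in control, 87.4, 90.0 and 56.0 with BPA, and 82.5, 103 and 76.5 with BPE. It stood at 78.8, 57.0 and 22.1 with BPB, 65.2, 62.6 and 73.4 with BPF, and 50.4, 40.1 and 22.4 with BPS. The BPA, BPE and BPF libraries lay above all control libraries. The log2 change was 1.20 with BPE (limma, adjusted p = 0.0402, and 0.0571 to 0.132 without each of the 6 libraries), and this call also missed the threshold with quantile normalization (0.0518) and median scaling (0.0626). The changes of 1.02 with BPA (0.0816) and 0.84 with BPF (0.245) did not pass. With only the 6 libraries compared, both passed (limma, adjusted p = 0.0199 and 0.0308). Without BPB replicate 3, the change with BPB was 0.84 (0.0288).

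UGT73B4 was not called against control with any compound in the fit of all libraries. It stood at 35.4, 30.5 and 47.7 FPKM in control, 74.4, 73.1 and 29.6 with BPA, 36.5, 25.6 and 11.6 with BPB, 80.3, 95.7 and 69.1 with BPE, 49.4, 33.7 and 36.3 with BPF, and 33.4, 13.1 and 21.1 with BPS. The BPE libraries lay above all control libraries (log2 change 1.10, limma, adjusted p = 0.0840), and BPA replicate 3 lay apart from the other BPA libraries. With only the 6 libraries compared, the BPE change passed (0.0064), and in no other setting did it pass.

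UGT74E2, the indole-3-butyric acid glucosyltransferase, rose with BPE. It stood at 10.3, 10.3 and 12.7 FPKM in control, 46.2, 68.0 and 37.1 with BPE, 30.0, 25.2 and 12.7 with BPA, and 15.3, 14.2 and 9.60 with BPB. With BPF it stood at 25.6, 14.95 and 13.7, and with BPS at 15.005, 4.91 and 11.4. All BPE libraries lay above every library of the other groups, and the log2 change of 2.05 ± 0.37 (SE, limma, adjusted p = 0.00491) was kept whichever library was left out. The BPA and BPF libraries also lay above all control libraries, BPA replicate 3 narrowly (12.74 against 12.66 FPKM in control replicate 3). The changes of 0.89 with BPA (limma, adjusted p = 0.128) and 0.61 with BPF (0.415) did not pass. Without BPA replicate 3, the change with BPA was 1.24 and passed (0.0472). UGT73C5 stood at 0.0332 to 0.13 FPKM in control, 0.167 to 0.656 with BPA, 0.236 to 2.69 with BPB, 0.217 to 0.315 with BPE, 0.227 to 0.475 with BPF and 0.0675 to 0.236 with BPS. Its values rested on about 1.19 to 83.4 estimated fragments, and the one library above 1 FPKM was BPB replicate 1.

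**Figure D2:**
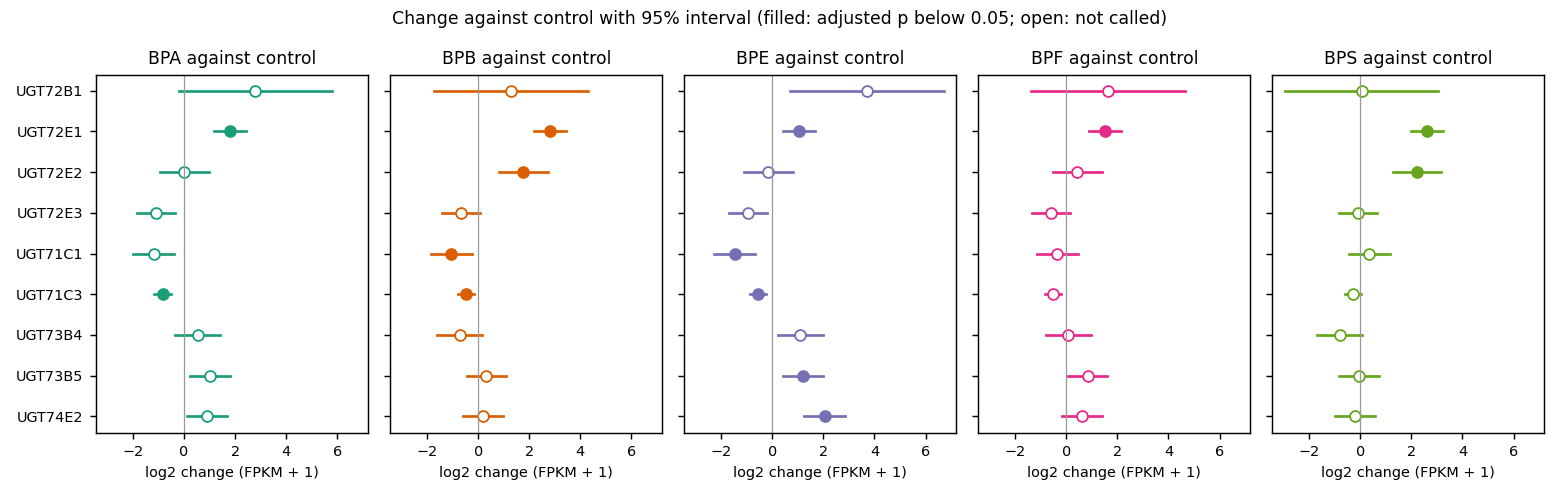
Log2 change against control (x axis, log2(FPKM + 1) scale) of the 9 tested glucosyltransferases (y axis) for each compound, with the 95% interval from limma; filled points passed at an adjusted p below 0.05. UGT72E1 is filled with all 5 compounds, UGT72E2 with BPB and BPS, and UGT74E2 with BPE, and the intervals of UGT72B1 are the widest shown.

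Compounds were compared directly in 10 pairs, of unknown relative dose, and 21 of 90 tests of members passed, in 8 pairs. None passed between BPE and BPA (2.63% of all tested genes called) or between BPF and BPA (0.0667%) in limma, with 2 and 1 members at an unadjusted p below 0.05. For BPE minus BPA, UGT72E1 differed by -0.77 (95% interval -1.397 to -0.14) and UGT74E2 by 1.16 (0.37 to 1.95, limma, adjusted p = 0.102). BPE differed from BPS in 6 of 9 members, where 39.4% of all tested genes were called. UGT72E1 (log2 difference 1.55, limma, adjusted p = 0.00114), UGT72E2 (2.36, 0.00117) and UGT71C1 (1.82, 0.00202) were higher with BPS, which bears the sulfonyl bridge. UGT74E2 (-2.24, 0.000520), UGT73B4 (-1.89, 0.00273) and UGT73B5 (-1.26, 0.0135) were lower with BPS, and of these 6 calls that of UGT73B5 was lost without BPE replicate 2 or BPS replicate 3 (0.0540 to 0.0661).

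BPE and BPB, which differ by the ethyl group on the bridge carbon of BPB, differed in 4 members, where 31.3% of all tested genes were called. UGT72E1 (log2 -1.76 for BPE minus BPB, limma, adjusted p = 0.000749) and UGT72E2 (-1.91, 0.00606) were lower with BPE. UGT73B4 (1.82, 0.00501) and UGT74E2 (1.85, 0.00236) were higher with BPE, and all 4 calls were kept whichever library was left out. BPB exceeded BPA in UGT72E1 (0.99, 0.0463) and UGT72E2 (1.76, 0.0255), beside 9.94% of all genes called, but the UGT72E1 call was lost without any one of the 6 libraries (0.0531 to 0.181), with median scaling (0.0685), with pseudocount 0.1 (0.0503), without the filter (0.0638) and with only the 6 libraries (0.0664). The UGT72E2 call was lost without BPA replicate 1 or 2 or BPB replicate 2 or 3 (0.0605 to 0.118). BPF fell below BPB in UGT72E1 (-1.26, 0.00743) and UGT72E2 (-1.34, 0.0375, lost without BPB replicate 2 or 3 or BPF replicate 1 or 3), beside 28.0% called.

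BPS and BPA differed in 4 members, where 18.2% of all tested genes were called: UGT72E2 (log2 2.21, limma, adjusted p = 0.00812), UGT71C1 (1.55, 0.0151) and UGT71C3 (0.56, 0.0243) were higher with BPS and UGT73B4 (-1.33, 0.0378) lower, and all except UGT72E2 were lost without some library (0.0567 to 0.158). Without BPS replicate 1, UGT72E1 (1.20, limma, adjusted p = 0.00390) and UGT72E3 (1.42, 0.00967) were also higher with BPS than with BPA. UGT73B5 (-1.32, 0.0297) and UGT74E2 (-1.39, 0.0221) were then lower with BPS. Each of these genes also passed with the replicate block (0.0286 to 0.0463), and none passed in the fit of all libraries (0.0523 to 0.0744). BPS exceeded BPB only in UGT71C1 (1.405, 0.0374, lost without 4 of the 6 libraries), beside 9.24% called, and UGT72E1 differed by -0.21 (95% interval -0.83 to 0.42) between them. Without BPB replicate 3, UGT72E3 was also higher (1.07, 0.0224) and UGT73B5 lower (-0.89, 0.0388) with BPS than with BPB. BPF lay below BPE only in UGT74E2 (-1.44, 0.0222, lost without 4 libraries), beside 16.0% called, and BPS exceeded BPF only in UGT72E2 (1.79, 0.0437, lost without 4 libraries), beside 3.04%. Without BPS replicate 1, UGT72E1 also passed between BPS and BPF (1.48, 0.00218).

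**Figure D3:**
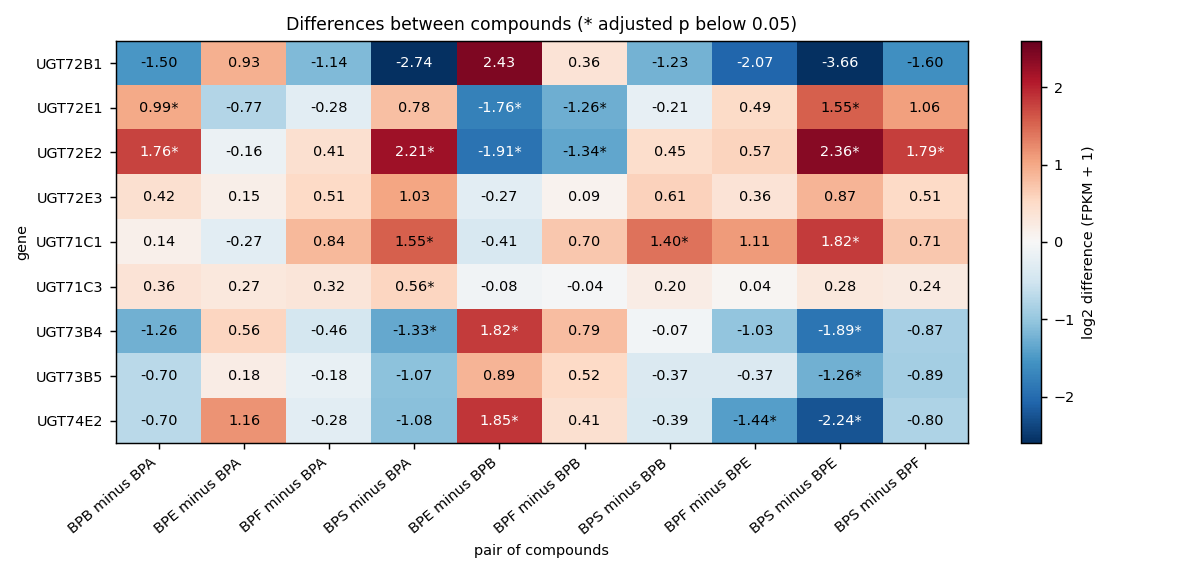
Log2 differences (colour and printed value, log2(FPKM + 1) scale) of the 9 tested glucosyltransferases (y axis) for each of 10 pairs of compounds (x axis, first minus second); an asterisk marks an adjusted p below 0.05. BPS minus BPE has 6 of 9 marked and BPE minus BPB has 4, with UGT72E1 and UGT72E2 opposite in sign to UGT73B4 and UGT74E2 in both.

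Over the 18 libraries, UGT73B4 and UGT74E2 had a Pearson correlation of log2(FPKM + 1) of 0.89, UGT72E3 and UGT71C1 of 0.87, UGT73B4 and UGT73B5 of 0.80, and UGT72E1 and UGT72E2 of 0.79. UGT72E3 and UGT73B5 stood at -0.89 and UGT72E2 and UGT73B4 at -0.82. The points share libraries, depth and group, and the values are descriptions. Outside the 10 genes, the tested genes most like each member over the 18 libraries were TDP1 for UGT72E1 (0.97), AMP1 for UGT72E2 (0.97), GAUT14 for UGT72E3 (0.95), MES15 for UGT71C1 (0.98), AT1G53110 for UGT73B4 (0.93), AT2G17705 for UGT73B5 (0.96) and COX19-2 for UGT74E2 (0.94), with lower values for UGT71C3 (AT1G77330, 0.80) and UGT72B1 (AT2G01300, 0.82).

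Enzymes that make the acceptors of the UGT72E proteins were lower with BPB. Of 13 monolignol biosynthesis genes, 0 rose and 11 fell with BPB (median log2 change -1.38, beside 0.16 over all tested genes), and 2 rose and 6 fell with BPS (median -0.57, beside 0.09). With BPA 0 rose and 1 fell, with BPE 0 rose and 1 fell, and with BPF 0 rose and 0 fell. Of all tested genes, 10.4% were called with BPA, 36.6% with BPB, 14.3% with BPE, 1.39% with BPF and 21.0% with BPS. The same shares stand beside the lists below. CAD5, which makes coniferyl and sinapyl alcohols from their aldehydes, fell from 392 ± 82.4 to 57.0 ± 7.85 FPKM with BPB (SD, n = 3, log2 change -2.75, limma, adjusted p = 5.41e-05) and to 84.03 ± 16.4 with BPS (-2.21, 0.000668). C4H, an early enzyme of the pathway, fell from 1040 ± 44.1 to 359 ± 60.4 FPKM with BPB (-1.55, 0.000196) and to 449 ± 30.02 with BPS (-1.21, 0.00256). HCT, which acts at the branch to lignin, fell with BPB (-1.96, 0.000292) and with BPS (-1.22, 0.0127). The BPB and BPS calls of these 3 genes were kept whichever library was left out. Without control replicate 1 the list had 9 called with BPB, 3 with BPS and 0 with BPA, and without any one of the 6 libraries compared it had 0 with BPE.

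Genes for the later fate of phenolic glucosides were a list of 7: malonyltransferases, vacuolar ABC transporters and the beta-glucosidases of monolignol glucosides. With BPA 1 rose and 1 fell, with BPB 1 and 1, with BPE 1 and 1, with BPF 0 and 0, and with BPS 1 and 2. Without control replicate 3 the counts with BPA and BPE were 0, and without control replicate 1 that with BPS was 1. PMAT2, which adds malonate to phenolic glucosides, fell from 102 ± 22.1 to 1.53 ± 1.34 FPKM with BPB (log2 change -5.45, limma, adjusted p = 1.29e-05) and to 7.57 ± 4.64 with BPS (-3.71, 0.000380), both kept whichever library was left out. PMAT2 also fell with BPA (to 25.5 ± 15.8 FPKM, -2.10, 0.0225) and BPE (to 31.7 ± 5.44, -1.64, 0.0481), but the BPA call was lost without 4 of the 6 libraries (up to 0.0993) and the BPE call without any one of the 6 (up to 0.178). BGLU45, a monolignol glucoside beta-glucosidase, rose with BPE from 2.59 ± 1.41 to 7.50 ± 0.438 FPKM (1.32, 0.0139), a call lost without 2 of the 6 libraries.

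Of 4 genes for UDP-glucose supply, 0 rose and 1 fell with BPA, 0 and 1 with BPB, 0 and 2 with BPE, and none was called with BPF or BPS. Without control replicate 1 or 3 the count with BPE was 0, without control replicate 1 or BPA replicate 2 that with BPA was 0, and without BPB replicate 3 that with BPB was 3. SUS1, a sucrose synthase, fell from 51.7 ± 9.15 to 16.9 ± 6.40 FPKM with BPB (log2 change -1.59, limma, adjusted p = 0.000851). SUS1 also fell with BPA, a call lost without control replicate 1 or BPA replicate 2. Of 6 regulators of the response to foreign chemicals, 3 rose and 1 fell with BPB and 1 fell with BPS, and 2 were called with BPB without BPB replicate 1 or 2 or with median scaling. With BPA 0 were called, and 1 with the replicate block. ANAC032, a NAC transcription factor, fell with BPB (-1.48, 0.000271) and BPS (-1.43, 0.000930), and TGA2, a factor that binds TGACG, rose with BPB (0.62, 0.00850). Of 12 chemical-induced genes, 1 rose and 1 fell with BPA, 0 and 4 with BPB, 3 and 0 with BPE, 2 and 0 with BPF and 0 and 4 with BPS. Of these, 1 was called with BPA without control replicate 1 or 3 or BPA replicate 2 or 3, 0 with BPF without BPF replicate 3, and 7 with BPB without BPB replicate 3. With the replicate block 3 were called with BPA. The xenobiotic-inducible cytochrome P450 gene CYP81D11 rose with BPA to 163 ± 26.5 FPKM from 48.7 ± 4.21 (1.71, 0.00362), and GSTU4, a glutathione S-transferase, fell from 198 ± 27.6 to 15.4 ± 10.8 with BPB (-3.79, 3.83e-05). CYP81D11 also rose with BPE, kept whichever library was left out, and with BPF, lost without BPF replicate 3. GSTU4 also fell with BPS, kept whichever library was left out.

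Other glucosyltransferases were called in both directions. Of all tested genes, 10.4% were called with BPA, 36.6% with BPB, 14.3% with BPE, 1.39% with BPF and 21.0% with BPS. Of 12 tested close relatives of the members, out of 18, 2 rose with BPA, 1 rose and 1 fell with BPB, 2 rose and 1 fell with BPE, 1 rose with BPF and 2 fell with BPS. These counts were 0 with BPA, BPF and BPS without control replicate 1 or 3, and 0 with BPA without any one of 5 of the 6 libraries. The count with BPE was 1 without control replicate 3 or BPE replicate 1, and that with BPB was 5 without BPB replicate 3. UGT73C7, a relative of UGT73C5, rose with BPE from 2.55 ± 0.568 to 17.3 ± 6.31 FPKM (log2 change 2.31, limma, adjusted p = 0.00355), and UGT73B1 rose with BPB from 26.4 ± 9.49 to 80.9 ± 19.8 (1.62, 0.00639). Of 11 tested genes for other phenolic glucosyltransferases, 0 were called with BPA, 2 rose and 3 fell with BPB and with BPE, 1 fell with BPF, and 1 rose and 3 fell with BPS. Without control replicate 3, 3 were called with BPE and 0 with BPF. UGT78D1, a flavonol rhamnosyltransferase, fell from 22.1 ± 1.80 FPKM to 6.98 ± 1.08 with BPB (-1.54, 0.000201) and 5.995 ± 1.47 with BPS (-1.74, 0.000272). UGT78D1 also fell with BPE, a call kept whichever library was left out, and with BPF, a call lost without 4 of the libraries compared. Of all 37 tested loci with a UGT symbol other than the members, 1 rose and 1 fell with BPA, 5 and 7 with BPB, 9 and 4 with BPE, 1 and 1 with BPF and 2 and 7 with BPS. Without control replicate 3 the count with BPE was 3, without any one control library those with BPA and BPF were 0, and without BPS replicate 2 that with BPS was 4. With the replicate number as a block, 4 were called with BPA.

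**Figure D4:**
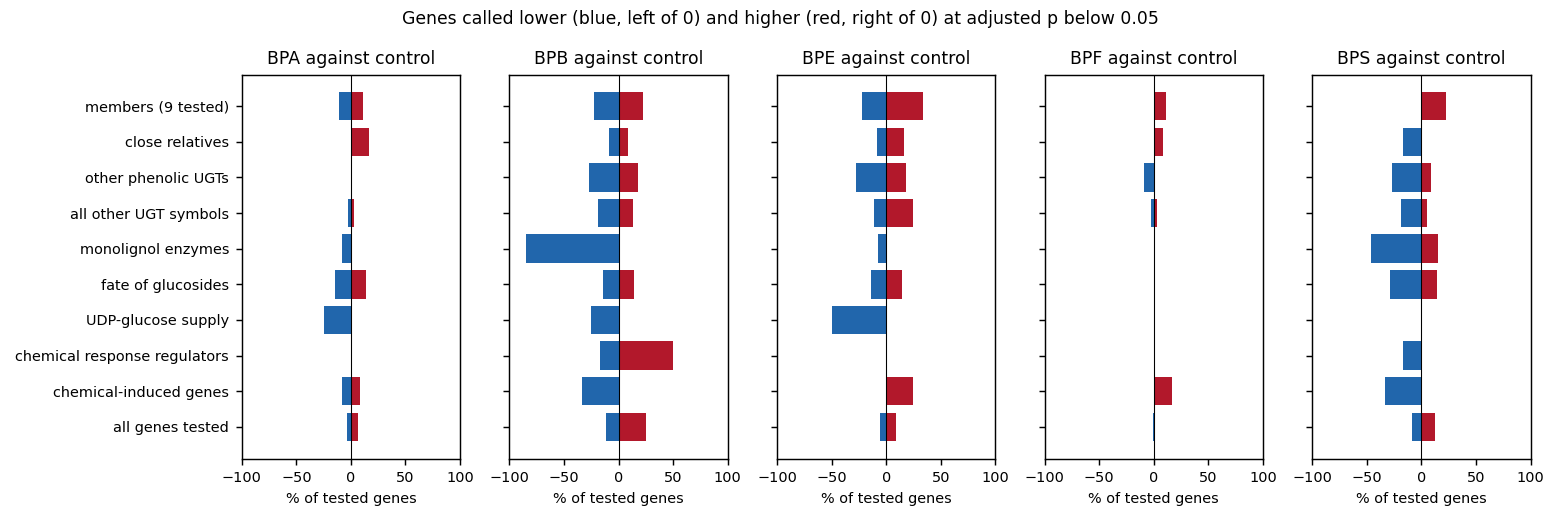
Share of tested genes (x axis, percent) called lower (blue, left) or higher (red, right) against control for the members, 8 other gene lists and all tested genes (y axis), with each of the 5 compounds. The monolignol enzymes with BPB have 11 of 13 genes on the lower side, and the lists rest on 4 to 37 genes each.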

How the data were processed

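Messenger RNA of 18 Arabidopsis root libraries was measured, in 6 groups of 3 taken from the sample titles. The authors deposited FPKM for 33602 loci, per the file headers. The build TAIR10 and the tools StringTie 1.3.0, HISAT2 2.0.4 and edgeR are named, without roles, per the submitters' processing notes; counts were not used here. The 10 loci and the gene lists were chosen with earlier results of these data known. All 10 members are named, with up to 3 called genes per list and comparison with control by lowest adjusted p, of which a part is given, and the most alike genes. Values were analysed as log2(FPKM + 1), so changes of low genes are understated. The 19484 genes averaging 1 FPKM or more were fitted with limma 3.58.1 (limma-trend) in R 4.3.3, with 1 coefficient per group. P-values are two-sided, adjusted by Benjamini-Hochberg within each of 15 comparisons, and called below 0.05. The script was tested on simulated data. Same-numbered libraries deviated together (every correlation over 0.1) for control and BPA (0.295 to 0.419) and for none of the other 14 pairs of groups. That is read from the data and not from a label, and the main fit used no pairing for any comparison. The replicate block, an alternative, was fitted to all 18 libraries at once. Alternatives were another scaling (quantile, median), pseudocount 0.1, no filter, no intensity trend, the replicate block, only the 6 libraries compared, adjustment over all 15 comparisons, and each library left out in turn. Fragment totals were estimated from the step between low values, with 55.8% to 63.0% of them within 0.02 of a whole number, and speak to counting error only. Sequences and positions come from the TAIR10.1 reference, matched by locus; the deposited values carry no coordinates.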

Additional observations from a re-analysis of the deposited data

How the results depend on the processing

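Against control, 14 member tests passed, and 7 to 20 did when each library was left out in turn, with 7 without control replicate 1 and 9 without control replicate 3. Without control replicate 1, 2 members passed with BPB, 1 with BPE and 0 with BPF. Between compounds 21 passed, with 15 to 27 when each library was left out. Among the 6 groups 7 members passed, with 6 to 8. The other settings gave 12 to 19 calls against control, 15 to 29 between compounds and 7 to 8 among groups. Over all settings, the 42 called results stayed called in 563 of 658 refits and lost the call in 95, the 102 uncalled ones gained a call in 57 of 1448, no called value changed sign, and the causes were not tested. The call of UGT73B5 with BPE was lost with quantile, median scaling and no filter (adjusted p 0.0518 to 0.0626), and that of UGT71C1 with BPB without the filter, with all comparisons adjusted together and with only the 6 libraries (0.0553 to 0.0997). Between compounds, median scaling ended UGT72E1 for BPB minus BPA (0.0685) and UGT72E2 for BPF minus BPB (0.0618), and UGT72E2 for BPS minus BPA was lost with only the 6 libraries (0.0705). With the replicate block, 15 tests against control and 29 between compounds passed, and 7 among groups. Deviations of same-numbered libraries had a median correlation of -0.00 (45 pairs, 15 over 0.1), against 0.01 for 90 differently numbered pairs (28 over 0.1). The rule for pairs was met in 1 of 15 pairs of groups, control and BPA. There the block changed no call other than that of UGT71C1 among the members. In the other pairs of groups the libraries share only a number. Of the calls, 7 of 14 against control and 11 of 21 between compounds were kept whichever library was left out. The median of all genes was 0.16 higher (log2) with BPB than in control, so changes with BPB read against it. Fragment numbers limit UGT73C5 and not the other members.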

Other observations

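Among 9167 loci with at least 1 group reaching 20 FPKM, 207 (2.26%) had a highest library at least 10 times the lowest in at least 1 group, and 3 had it in at least 4 groups. UGT72B1, with such a ratio in 4 groups, was 1 of these 3. The spread of UGT72B1 was 52.3-fold in control, 20.5-fold with BPB, 30.4-fold with BPF and 19.6-fold with BPS, and 1.19-fold with BPE and 2.104-fold with BPA.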
